A study of Rattus norvegicus with 90 samples.

Results

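Of the 90 libraries in the whole series, 6 were compared here: 3 of microglia from rats given IL-1β after birth and 3 from rats given PBS, all collected at postnatal day (P) 22 in the experiment that used the intravenous route. They were chosen by their titles, as the P22 intravenous samples labelled IL1-beta without cells and those labelled PBS. Both groups were male Wistar Han pups. The injured group was injected intraperitoneally with IL-1β (recombinant mouse protein, 20 µg per kg) 2 times a day from P1 to P4 and once on P5, and a sham (PBS) by vein at P20, while the control group received PBS on both occasions. Neither group received human umbilical cord mesenchymal stromal cells (HuMSC). The other 9 libraries of the same experiment came from rats given IL-1β and then HuMSC at 20, 50 or 125 M cells per kg, 3 libraries each, and are shown for reference. Brains were perfused and taken 48 h after the sham, the olfactory bulbs and cerebellum were left out, and CD11b/c-positive cells were enriched with beads. Whether each library is a different animal is not given in the labels, so p-values measure only the spread between these samples, which may be technical.

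Microglia are the resident macrophages of the brain. They clear debris, respond to cytokines and take part in pruning synapses and in the development of myelin. IL-1β is a cytokine that acts through its receptor on NF-kB and MAP kinase signalling, and given after birth to rodents it serves as a model of the systemic inflammation linked to brain injury in preterm infants. At P22 the last injection of IL-1β lay well in the past, so the comparison asked what remained different in the microglia after the exposure.

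The 6 libraries held 16.2 to 21.0 M counts, with normalization factors from 0.936 to 1.01. Mitochondrially encoded transcripts took 3.24 to 5.74% of counts, highest in control replicate 1, which also lay apart from the other libraries on the first principal component. Over genes, the correlation of log2 levels was 0.982 to 0.991 within a group and 0.980 to 0.992 between groups. The enriched cells carried their label: 26 homeostatic microglial genes together made up 85261 to 90918 counts per 1 M counts (CPM) in control libraries and 76248 to 83379 in injured ones, so the injured libraries were all below the control libraries in this sum. The mean log2 level of the same genes overlapped, from 9.88 to 9.94 in control and from 9.87 to 9.95 in injured libraries. In whole-population RNA, fewer cells of a type and less RNA per cell cannot be told apart.

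A single gene, 1 of 14032 tested, passed the edgeR quasi-likelihood test with Benjamini-Hochberg adjustment at 0.05 (0.00713%). It was Ncoa3, which encodes a steroid receptor coactivator, a protein that binds hormone-bound nuclear receptors and brings histone acetyltransferases to their target genes. Ncoa3 (ENSRNOG00000005616) lies on chromosome 3 from 162692185 to 162787548, forward strand, as the table gives it without naming its genome build, and no other gene of the table overlaps it. The 3 control libraries held 427, 415 and 354 CPM of Ncoa3. The 3 injured libraries held 217, 235 and 245 CPM. The highest injured library was well below the lowest control library, and the mean went from 399 ± 38.8 to 232 ± 14.4 CPM (SD, n = 3). Ncoa3 fell by 0.78 ± 0.087 on the log2 scale (SE), and edgeR's adjusted p was 0.00493.

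The call depended on which libraries entered the fit, although the size hardly did. Without injured replicate 1 the edgeR adjusted p was 0.081, without injured replicate 2 it was 0.0937, and without control replicate 1 it was 0.0628. With the 6 control and injured libraries alone it was 0.141. Across all the alternatives run, the log2 difference of Ncoa3 stayed between -0.86 and -0.73.

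The other groups of the same experiment divided into those near the injured and those near the control level. At 20 M cells per kg Ncoa3 stood at 245, 254 and 228 CPM, close to the injured range. At 50 M cells per kg it stood at 463, 442 and 436 CPM, above every control library. At 125 M cells per kg the libraries held 340, 381 and 391 CPM, overlapping the lower part of the control range and clear of the injured one. These groups are shown as levels; they were not part of the comparison.

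**Figure D1:**
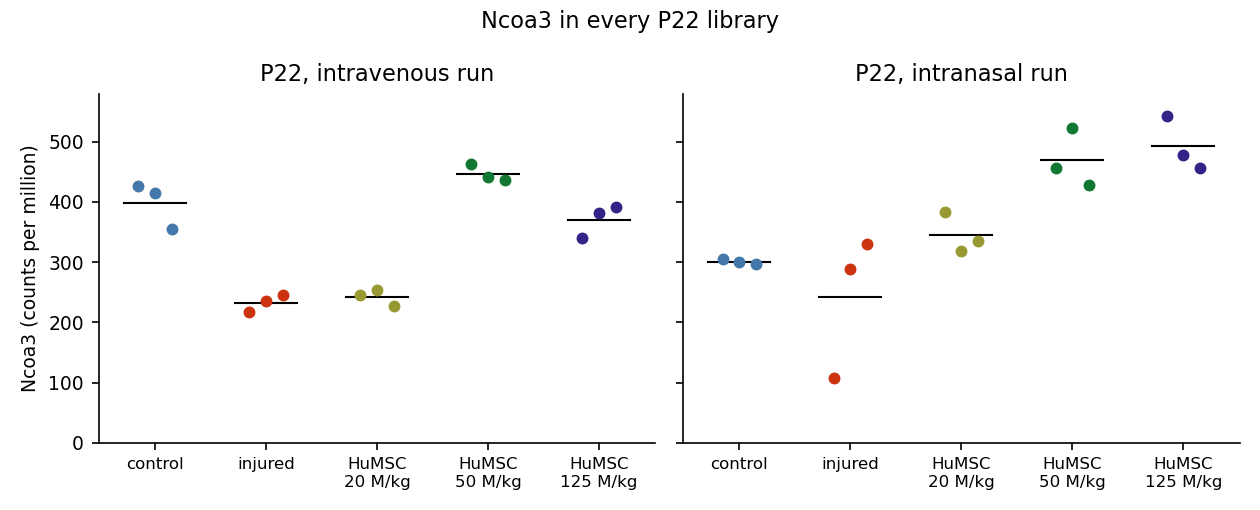
Ncoa3 in CPM (vertical axis, from 0) in every library of the 5 groups of the intravenous (left) and intranasal (right) P22 experiments; points are libraries and bars are group means. In the intravenous experiment the injured libraries lie at 217 to 245 CPM and the control libraries at 354 to 427, whereas 1 injured library of the intranasal experiment, at 108 CPM, lies apart from the other 2.

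The other experiments held the same contrast in other libraries. In the intranasal P22 experiment Ncoa3 stood at 305, 300 and 297 CPM in control and at 108, 288 and 330 CPM in injured libraries. The log2 difference there was -0.31 ± 0.269 (adjusted p = 0.759, edgeR), and without injured replicate 1, the library at 108 CPM, it was 0.03. The 9 intranasal libraries with HuMSC held 319 to 543 CPM, all of them above every control library. At P7 it was -0.50 in the intranasal experiment (adjusted p = 0.144) and -0.10 in the intravenous one, and at P12 it was 0.42 (adjusted p = 0.108) and 0.08. None of these passed edgeR's test, and the sign was positive in both P12 experiments.

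The family of Ncoa3 and its partners did not share its size of change. Ncoa2, a second p160 coactivator, had a log2 difference of -0.29 (adjusted p = 0.308), with 32.5, 38.5 and 41.1 CPM in control and 33.5, 32.1 and 26.2 in injured libraries. Ncoa1, the founding member of the family, stood at 62.5, 63.0 and 75.5 CPM against 60.7, 65.1 and 64.8, and the groups overlapped. Crebbp, the histone acetyltransferase that p160 proteins recruit, was lower in each injured library, at 103, 87.9 and 105 CPM against 71.0, 73.3 and 77.0 (log2 difference -0.42, adjusted p = 0.172). Tbl1x, a subunit of the NCoR corepressor complex, had a log2 difference of -0.31 (adjusted p = 0.215). Of 21 nuclear receptor coregulators tested, Ncoa3 was the only one that passed, 4 had a lower and 0 a higher level at an unadjusted p under 0.05, and the median difference was -0.05. Over all genes, 7.12% were lower and 7.7% higher at that threshold, and the median difference was 0.00.

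Chromatin regulators, among them methyltransferases, demethylases and remodellers with long transcripts, were mostly lower by small amounts. Of 36 tested, 0 passed the adjusted test, and 9 were lower and 0 higher at an unadjusted p under 0.05. The shares of all genes were 7.12% lower and 7.7% higher. A positive sign was found for 3 of the 36 and for 7102 of all 14032 genes, and the median of the 36 was -0.13. Hcfc1, a cofactor that tethers histone-modifying complexes to promoters, held 52.8, 61.5 and 72.4 CPM in control and 49.7, 51.7 and 41.9 in injured libraries (log2 difference -0.38, adjusted p = 0.225). Kdm5a, a histone H3 lysine demethylase, held 121, 109 and 123 CPM against 99.9, 99.4 and 98.9 (log2 difference -0.25, adjusted p = 0.246). The median of the list rested on control replicate 3, whose mean log2 level for these genes was 6.97, against 6.63 and 6.66 in the other 2 control libraries and 6.58 to 6.67 in the injured ones, and without that library the median was -0.01. Ncoa3 and these genes shared part of their pattern: the libraries at 50 M cells per kg, where Ncoa3 was high, also had high chromatin regulator levels (6.74 to 6.90), and the intranasal injured library with 108 CPM of Ncoa3 had the lowest (5.83). They parted at 125 M cells per kg, where the chromatin regulator level was 6.51 to 6.67, as low as in the injured libraries, with Ncoa3 at 340 to 391 CPM, and in control replicates 1 and 2, whose chromatin regulator levels lay within the injured range.

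A further 11 genes led the lower side by their p-values, with all 3 injured libraries below all 3 control libraries, as held for 8.74% of all genes tested. These genes were chosen by the contrast itself, so their values are a description. Mertk, a receptor tyrosine kinase through which macrophages and microglia engulf apoptotic cells, stood at 1131, 1122 and 1174 CPM in control and at 816, 839 and 786 in injured libraries, a log2 difference of -0.49 ± 0.08 (adjusted p = 0.0624). The libraries of each group lay close together, and the groups were far apart relative to that spread. With HuMSC, Mertk was at 824 to 941 CPM at 20 M cells per kg and at 1111 to 1188 CPM at 50 M cells per kg.

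The same adjusted p of 0.0624 was found for 4 more genes on this side, of which 3 are described. Cdh23, a cadherin best known from the hair cells of the inner ear, held 45.3, 46.0 and 37.0 CPM in control and 23.9, 24.8 and 29.0 in injured libraries. Grhl2, a transcription factor of epithelia, was at 14.2, 11.7 and 11.3 CPM against 6.11, 6.76 and 6.36, the only one of these 3 with a log2 difference near -1 (-0.95 ± 0.15). March1, a membrane ubiquitin ligase that takes MHC class II and CD86 off the surface of antigen-presenting cells, was at 35.2, 36.3 and 26.8 CPM against 20.4, 20.1 and 18.5. Cd86 itself was lower too, at 126, 119 and 121 CPM against 93.9, 104 and 115, with a log2 difference of -0.23 (adjusted p = 0.274).

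The remaining genes on the lower side had adjusted p-values from 0.103 to 0.107. The widest differences were those of Olfm3, an olfactomedin-domain secreted protein, with a log2 difference of -1.53 ± 0.28, and of Kcnj15, an inward-rectifier potassium channel, with -1.50 ± 0.27. Kcnj15 held 20.3, 16.5 and 12.1 CPM in control and 6.35, 4.82 and 6.16 in injured libraries. Mlxip, a glucose-sensing transcription factor, was at 87.8, 100.2 and 89.6 CPM against 60.4, 61.2 and 63.4. Ssh2, a phosphatase that activates the actin-severing protein cofilin, differed by -0.57, and Pm20d2, a dipeptidase, by -0.43. Irf2, a transcription factor that restrains interferon-responsive genes, held 183, 185 and 141 CPM against 118, 119 and 124 (log2 difference -0.50).

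On the higher side 12 genes led by p-value, with adjusted p-values from 0.103 to 0.126 and all injured libraries above all control libraries, as held for 10.8% of all genes. Lrg1, a secreted glycoprotein that modulates TGF-β signalling in endothelium, had the widest difference, from 5.30, 5.27 and 3.20 CPM in control to 9.83, 11.4 and 14.0 in injured libraries (1.36 ± 0.26). Htra3, a secreted serine protease that binds TGF-β family ligands, stood at 10.4, 12.8 and 9.49 CPM against 25.6, 28.5 and 25.1 (1.28 ± 0.24). Bsg, which encodes basigin, the partner of lactate transporters and abundant in the endothelium of the brain, was at 537, 615 and 591 CPM against 890, 841 and 837 (0.56 ± 0.11). Ushbp1 held 8.83, 11.1 and 9.23 CPM against 20.5, 15.5 and 18.7, and Hrct1 held 1.12, 1.27 and 0.98 CPM against 2.75, 2.83 and 2.28.

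The others on this side have varied roles. Acaa2, the last enzyme of mitochondrial fatty acid β-oxidation, was at 35.5, 35.7 and 29.2 CPM against 50.5, 50.1 and 55.7 (0.64 ± 0.13). Mgst3, a membrane glutathione transferase, differed by 0.80, Tubb6, a β-tubulin, by 0.88, and Ptp4a3, a small phosphatase, by 0.63. Hint1, a nucleotide hydrolase, differed by 0.57, Bmp1, the protease that trims the ends of procollagens, by 0.52, and Hdhd5 by 0.46. DESeq2 on the same 14032 genes called 195 (1.39%), 106 higher and 89 lower, among them all 12 of each side. The edgeR adjusted p of those 195 genes reached up to 0.234.

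In the intranasal P22 experiment, whose libraries played no part in the choice, the 12 higher genes had a median log2 difference of 0.14 and 10 kept the positive sign. The 12 lower genes had a median of -0.12 and 8 kept the negative sign. Over all 13594 genes tested in that experiment 6927 had a positive sign, the median was 0.01, 0 passed edgeR's adjusted test, 646 had an unadjusted p under 0.05 (4.75%), and DESeq2 called 9 (0.0662%). An unadjusted p under 0.05 in the same direction was seen for Htra3 (1.42 ± 0.556) and Acaa2 (0.72 ± 0.306) on the higher side and for Kcnj15 (-1.05 ± 0.362) on the lower side, where 2.83% of all genes were higher and 1.92% lower at that threshold. Htra3 and Acaa2 were highest there in injured replicate 1, at 39.6 and 58.4 CPM. Kcnj15 was lowest in the same library, at 1.29 CPM. Injured replicates 2 and 3 held 5.36 and 5.46 CPM of it, and the control libraries 8.617, 6.395 and 10.43 CPM. Mertk, at 888, 1161 and 1116 CPM in injured and 979, 1087 and 894 in control libraries, showed no such separation.

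In the 4 experiments at P7 and P12, also outside the choice, the same genes kept their sign unevenly. Of the higher genes, 7 of 12 were positive in the intranasal and 3 of 11 in the intravenous P7 experiment, with medians of 0.14 and -0.06. At P12, 5 of 12 were positive in the intranasal and 9 of 12 in the intravenous experiment, with medians of -0.11 and 0.09. Of the 12 lower genes, 8 and 7 were negative at P7, intranasal and intravenous, with medians of -0.19 and -0.09. At P12, 5 and 8 of them were negative, with medians of 0.04 and -0.12.

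**Figure D2:**
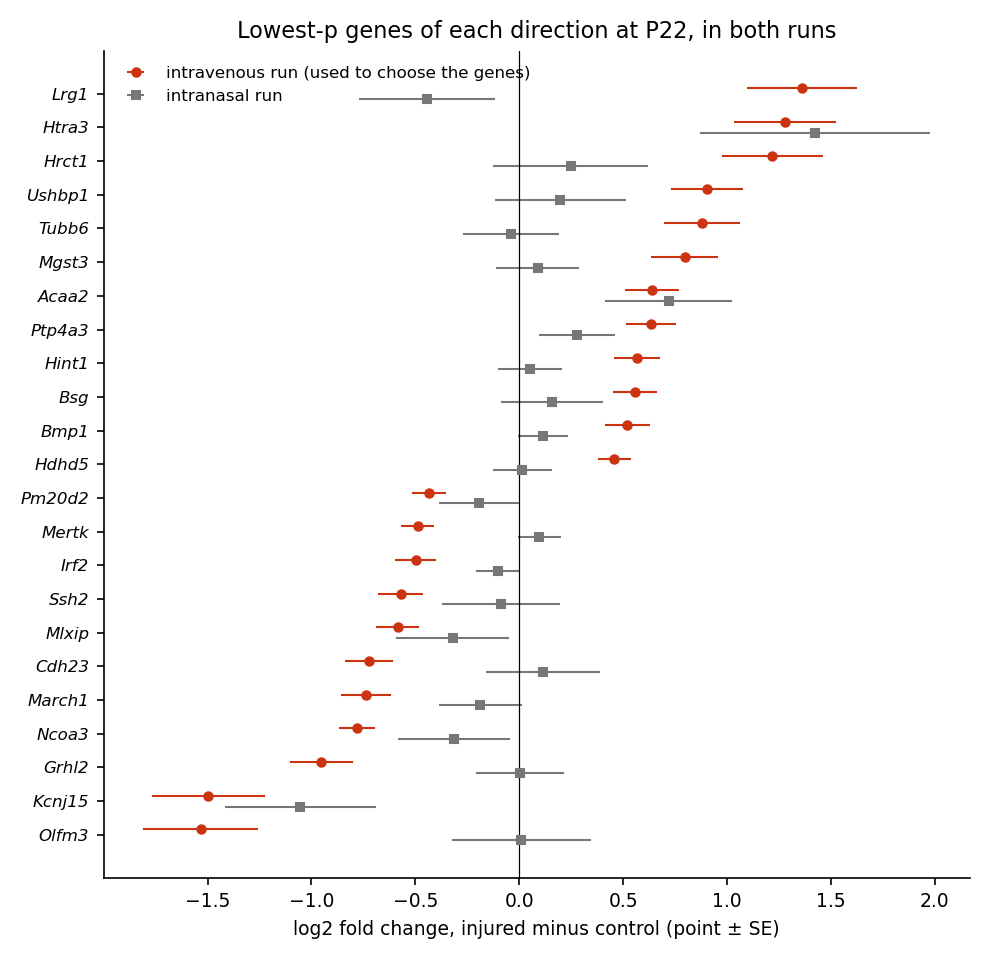
Log2 fold change (injured minus control, horizontal axis; point ± SE) of 11 of the 12 lower genes and the 12 higher genes in the intravenous (red circles) and intranasal (grey squares) P22 experiments. The genes were chosen by the intravenous values, so the distance of the red points from 0 is a description. In the intranasal experiment 10 of the 12 higher genes have the same sign, as do 8 of all 12 lower genes, 1 of which is not drawn.

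Markers of the vessel wall stood higher in the injured libraries as a group. Mural cells are the pericytes and smooth muscle cells that wrap vessels. Of 16 mural markers tested, 0 passed the adjusted test, and 14 were higher and 1 lower at an unadjusted p under 0.05. Over all genes, 7.7% were higher and 7.12% lower at that threshold. All injured libraries lay above all control libraries for 13 of the 16 and for 10.8% of all genes. The median log2 difference of the 16 was 0.94. The mean log2 level of the 16 was 4.06, 4.29 and 3.78 in control and 5.01, 4.55 and 4.93 in injured libraries, which did not overlap. Leaving out any 1 library kept the median between 0.79 and 1.09.

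Acta2, the smooth muscle actin, held 88.4, 105 and 61.6 CPM in control and 196, 111 and 188 in injured libraries. Higd1b, a pericyte-enriched mitochondrial protein, was at 3.16, 3.82 and 2.22 CPM against 6.29, 5.62 and 6.99 (1.04 ± 0.23, adjusted p = 0.127). Des, the muscle intermediate filament desmin, differed by 1.10 ± 0.295 (adjusted p = 0.186), Ndufa4l2 by 1.17 and the potassium channel gene Kcnj8 by 0.93. The marker on the lower side was Cspg4, named here after its values were seen, at 76.2, 75.8 and 36.8 CPM against 27.4, 36.8 and 36.3. Cspg4, the NG2 proteoglycan, is also a marker of oligodendrocyte precursors. The 10 tested members of the precursor list all had a positive sign, against 7102 of all 14032 genes. However, 0 of the 10 had an unadjusted p under 0.05. Their mean log2 levels overlapped, at 1.794 to 2.617 in control and 2.401 to 2.979 in injured libraries. In the intranasal P22 experiment 1 of 10 was positive, with a median of -0.34.

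Extracellular matrix genes gave a like picture. Of 33 tested, 15 were higher and 0 lower at an unadjusted p under 0.05, where 7.7% of all genes were higher and 7.12% lower. Of these 33, 17 did not overlap, all with injured above, as held for 10.8% of all genes. The median was 0.56. Col6a2 and Col6a1, chains of the beaded-filament collagen VI, differed by 1.23 ± 0.297 and 1.05 ± 0.28 (adjusted p = 0.151 and 0.186). Col18a1, a basement membrane collagen, held 19.5, 33.7 and 23.8 CPM against 57.9, 42.6 and 54.4, and Nid1, which links laminin to collagen IV, held 34.1, 39.0 and 33.7 CPM against 88.4, 60.9 and 71.4.

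Fibroblast and endothelial markers were also on the higher side. Of 13 fibroblast markers, 7 were higher and 0 lower at an unadjusted p under 0.05, with a median of 0.66. The shares over all genes were 7.7% higher and 7.12% lower. Mgp, a matrix protein that blocks calcification, held 26.4, 33.9 and 19.5 CPM against 56.1, 34.4 and 55.9. Dcn, the proteoglycan decorin, differed by 0.82, and Slc6a13, a GABA transporter of the meninges, by 0.80. Of 17 endothelial markers, 6 were higher and 0 lower, with a median of 0.40. Cldn5, the tight junction claudin of the blood-brain barrier, stood at 177, 221 and 174 CPM against 378, 275 and 370 (0.84 ± 0.2, adjusted p = 0.151), and Egfl7, Esam and Sox18 differed by 0.59, 0.66 and 0.90. None of these passed the adjusted test.

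The other groups of the experiment mostly stood above the control level for these markers. The mean log2 level of mural markers in the 9 libraries with HuMSC ran from 4.08 to 5.32, with 1 library, at 125 M cells per kg, inside the control range, and that of endothelial markers from 6.39 to 7.23, against 6.04 to 6.31 in control libraries. In the intranasal P22 experiment mural levels were 3.15 to 4.01 in control and 3.64 to 3.81 in injured libraries, within the control range. There the median difference was 0.17 for mural, -0.05 for matrix, 0.28 for fibroblast and 0.13 for endothelial markers. The difference between the 2 experiments was tested gene by gene in a fit of all 30 P22 libraries, and 0 of 14184 genes passed edgeR's adjusted test (950 had an unadjusted p under 0.05, 6.7%, and DESeq2 called 1, 0.00705%). Of the 16 mural markers, 3 had a positive and 1 a negative difference at that unadjusted threshold, and of 33 matrix genes 7 had a positive one, while 2.72% of all genes had a positive and 3.98% a negative one.

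The mean log2 levels of mural, fibroblast, endothelial and matrix genes were higher in all injured than in all control libraries. The summed microglial level was lower in all injured libraries, while the mean log2 microglial level overlapped. Summed mural and endothelial levels were also higher in every injured library. Summed fibroblast levels overlapped, at 290 to 507 CPM in control and 457 to 610 CPM in injured libraries. So did summed matrix levels, at 13831 to 15572 CPM and 13068 to 15807 CPM. Within the control group, replicate 3 had both the lowest summed microglial level, 85261 CPM, and the lowest mural level, 3.78. Control replicate 1 had the highest summed microglial level, 90918 CPM. It also had the lowest endothelial (6.04), fibroblast (3.70) and matrix (4.79) mean log2 levels of the control group. Astrocyte markers also had positive signs, 12 of 14, with a median of 0.39, and so did all 8 erythroid markers, with 0.68. At an unadjusted p under 0.05, 2 astrocyte and 0 erythroid markers were higher, as were 7.7% of all genes. Mean log2 astrocyte levels overlapped, at 3.543 to 3.808 in control and 3.804 to 4.248 in injured libraries. The part of the vessel-wall levels in the results for single genes was not tested.

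**Figure D3:**
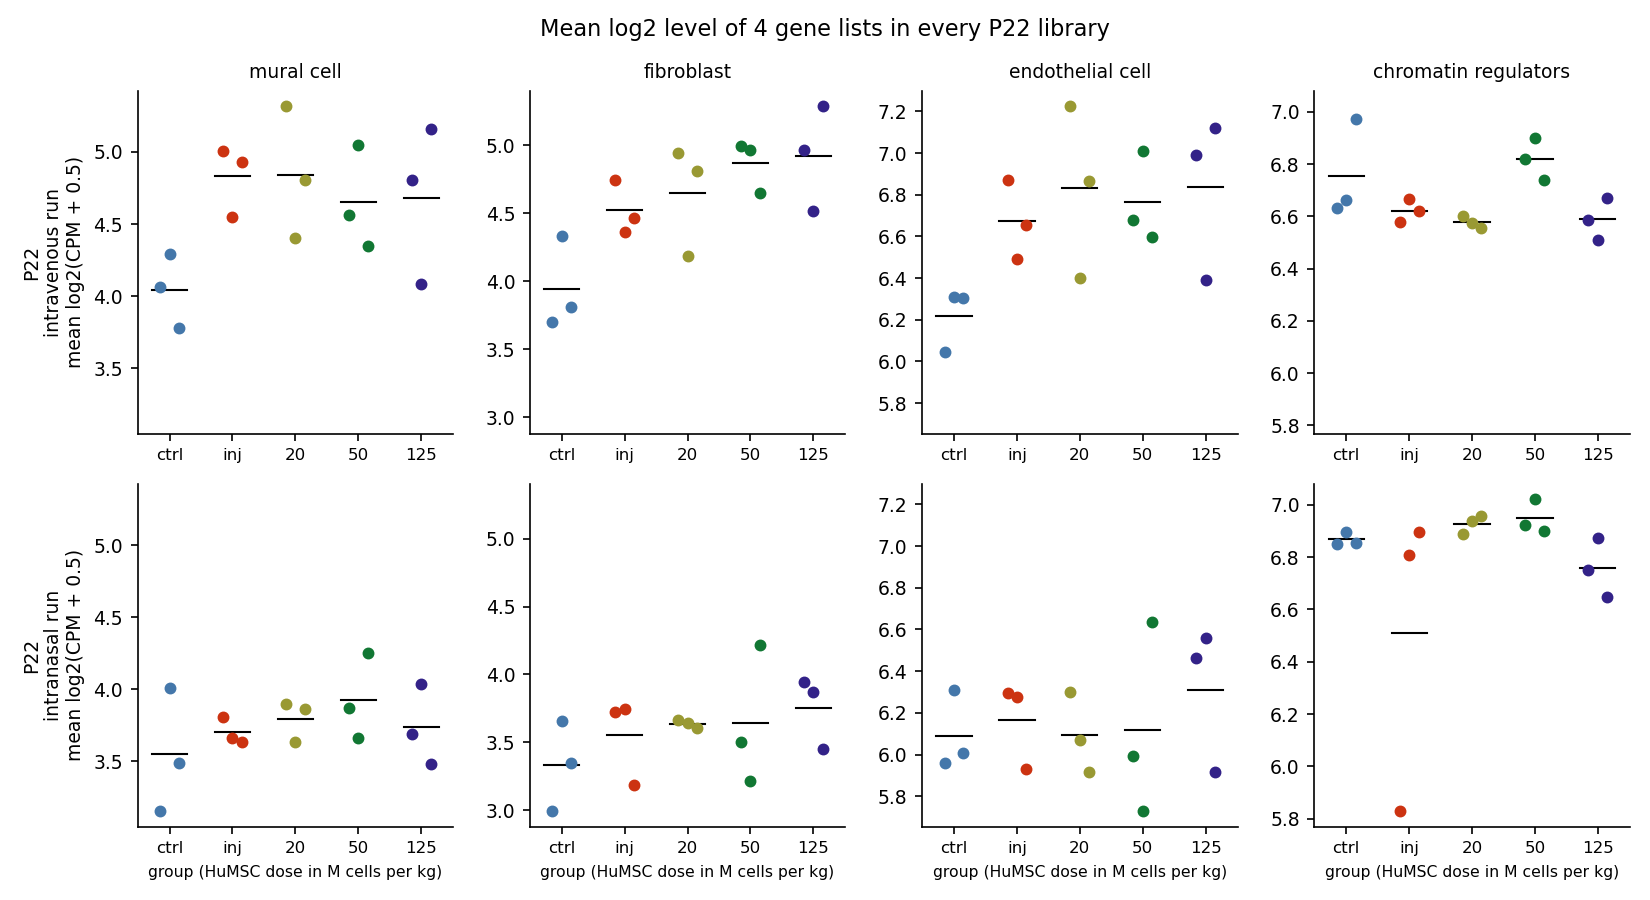
Mean log2(CPM + 0.5) of mural, fibroblast, endothelial and chromatin regulator genes (vertical axes) in each library of the 5 groups of the intravenous (top) and intranasal (bottom) P22 experiments; points are libraries, bars are group means, and vertical axes do not start at 0. In the intravenous experiment the 3 control libraries lie lowest for mural markers apart from 1 library at 125 M cells per kg, at 4.08, and in the intranasal one a single injured library, at 5.83, lies far below the rest for chromatin regulators.

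Genes of signalling by TGF-β and BMP, signals that pass between vessel cells and microglia, were more often higher than lower. Of 26 tested, 8 were higher and 2 lower at an unadjusted p under 0.05, with a median of 0.14. Over all genes, 7.7% were higher and 7.12% lower. Their mean log2 level was 5.115 to 5.415 in control and 5.482 to 5.613 in injured libraries, which did not overlap. The summed levels overlapped, at 3213.2 to 3549.2 CPM in control and 3255.6 to 3421.3 CPM in injured libraries. Id1, a transcriptional inhibitor induced by BMP, held 15.0, 23.2 and 21.0 CPM in control and 31.1, 34.8 and 32.8 in injured libraries (0.74 ± 0.19, adjusted p = 0.172). Acvrl1, an endothelial BMP receptor, held 46.2, 51.1 and 50.5 CPM against 70.9, 64.9 and 77.5. Smad6 and Id3, both BMP-induced, differed by 0.93, with overlapping groups, and by 0.60.

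Lists of other immune cells differed in direction: mast cell, neutrophil and T and NK cell markers had positive medians, and B cell, dendritic cell and border macrophage markers did not. Mast cells, granule-filled cells of the meninges, gave the widest median of all 36 lists, 1.45. At an unadjusted p under 0.05, 8 of 12 markers were higher and 0 lower, against 7.7% and 7.12% of all genes. The injured libraries were uneven, with summed mast cell levels of 233, 94.5 and 186 CPM against 120, 106 and 74.8 in control libraries, so that injured replicate 2 lay inside the control range. Without injured replicate 1 the median was 0.94. Tpsb2, a tryptase, held 2.52, 2.42 and 1.39 CPM against 11.4, 2.54 and 10.4, and Hdc, the enzyme that makes histamine, held 1.28, 1.27 and 0.825 CPM against 5.44, 1.94 and 3.11. In the intranasal P22 experiment the median of 11 mast cell markers was 0.96, with 6 higher and 0 lower, against 2.83% and 1.92% of all genes there. Of these 11, 5 had all injured above all control libraries, as did 5.96% of all genes there. Counts of the near-identical mast cell proteases are uncertain.

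Neutrophil markers had 4 of 13 members higher and 0 lower at an unadjusted p under 0.05, with a median of 0.77. T and NK cell markers had 4 of 10 higher and 0 lower, with a median of 0.75. Among all genes, 7.7% were higher and 7.12% lower at that threshold. The neutrophil median was 0.49 without injured replicate 3 and 0.53 without control replicate 3. Lcn2, an iron-trapping protein of neutrophils and of activated glia, was at 11.9, 14.9 and 10.3 CPM against 26.5, 18.7 and 29.7 (1.02 ± 0.24, adjusted p = 0.151). The neutrophil cytokine gene Retnlg held 3.59, 3.21 and 2.06 CPM against 4.52, 5.52 and 5.29. Ccl5, a chemokine of T and NK cells, held 2.68, 2.79 and 2.68 CPM against 5.50, 5.12 and 7.09 (1.12 ± 0.35, adjusted p = 0.221), and the cytotoxic granule genes Prf1 and Gzma differed by 1.12 and 1.38. Thy1, at 3.59, 4.06 and 2.84 CPM against 13.3, 4.67 and 8.64, is also made by neurons and fibroblasts. In the intranasal P22 experiment the medians of these 2 lists were -0.06 and -0.04. Of B cell markers 1 of 6 had a positive sign, with a median of -0.11, of dendritic cell markers 4 of 9, with -0.18, and of border macrophage markers 5 of 11, with -0.01. Monocyte markers had 7 of 10 positive and a median of 0.45, while their summed level was 2620 to 3451 CPM in control and 2515 to 2699 in injured libraries. Haemoglobin varied widely within both groups: Hba-a2 held 1117, 190 and 67.7 CPM in control and 2376, 237 and 498 in injured libraries, with replicate 1 highest in both.

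Microglial identity genes showed differences of both signs. Of 26 homeostatic genes, 2 were higher and 5 lower at an unadjusted p under 0.05, with a median of 0.02. Among all genes tested, 7.7% were higher and 7.12% lower. Crybb1, a crystallin found in microglia, was one of the higher members, at 1.46 ± 0.06 CPM in control (SD, n = 3) and 3.24, 2.19 and 2.86 in injured libraries, all above control (0.91 ± 0.283, adjusted p = 0.221). Slc2a5, the fructose transporter of microglia, stood at 999, 926 and 839 CPM in control and at 758, 724 and 797 in injured libraries (-0.28 ± 0.1, adjusted p = 0.252). Csf1r, the receptor on which microglia depend to survive, differed by -0.23 (adjusted p = 0.275). The receptors P2ry12 and Cx3cr1 and the marker Tmem119 overlapped between groups, with log2 differences of -0.24, -0.15 and 0.27.

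Genes of disease-associated microglia did not move as a block: 4 of 28 were higher and 2 lower at an unadjusted p under 0.05, with a median of -0.04. At that threshold 7.7% of all genes were higher and 7.12% lower. Gpnmb, a membrane glycoprotein of lipid-laden macrophages, held 80.5, 82.5 and 92.9 CPM against 120, 108 and 108 (0.39, adjusted p = 0.206), while Ankh, a pyrophosphate transporter, held 151, 132 and 121 CPM against 112, 105 and 95.5 (-0.38, adjusted p = 0.206). In the cell cycle list 2 of 39 were higher and 2 lower, and Mki67, a mark of dividing cells, stood at 10.2 to 12.5 CPM in control and 10.5 to 14.9 in injured libraries.

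The IL-1 pathway itself had 3 of 30 members higher and 3 lower at an unadjusted p under 0.05, with a median of -0.04. Those counts were near the shares over all genes, 7.7% higher and 7.12% lower. Il1b stood at 121, 95.0 and 60.8 CPM in control and 77.1, 93.1 and 96.9 in injured libraries. Its receptor gene Il1r1 and its antagonist Il1rn, at 12.1 to 17.0 and 7.16 to 10.3 CPM in injured libraries, also overlapped with control. Il1rl1, the IL-33 receptor, had the smallest p of the list: 112, 106 and 111 CPM in control and 88.0, 81.2 and 72.1 in injured libraries (-0.45 ± 0.095, adjusted p = 0.126). Il18, a related cytokine, differed by -0.33, Peli1, a ubiquitin ligase of the IL-1 receptor complex, by -0.32, and Sigirr, an inhibitory receptor of the family, by 0.74.

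Downstream inflammatory genes passed the unadjusted threshold at shares near or below those of all genes. Of 24 cytokine and NF-kB genes, 2 were higher and 1 lower at an unadjusted p under 0.05, with a median of 0.11. Over all genes, 7.7% were higher and 7.12% lower. All injured libraries lay above all control libraries for 6 of the 24 and below them for 2, against 10.8% and 8.74% of all genes. A positive sign was found for 16 of the 24 and for 7102 of all 14032 genes. Their mean log2 levels overlapped, at 5.111 to 5.48 in control and 5.354 to 5.481 in injured libraries. Nfkb1, a subunit of the factor, stood at 206, 196 and 189 CPM against 173, 180 and 178 (-0.16), and Bcl3, a nuclear partner of it, at 0.856, 1.21 and 1.08 CPM against 2.87, 2.78 and 1.94 (1.26 ± 0.37, adjusted p = 0.209). Of 25 interferon-response genes 1 was higher, Ifi27 (0.27, adjusted p = 0.327), and 0 were lower. Of 17 antigen presentation genes 0 were higher and 1 lower. Tnf had 2 and Arg1 7 counts over the 15 libraries of the experiment and were too low to test.

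**Figure D4:**
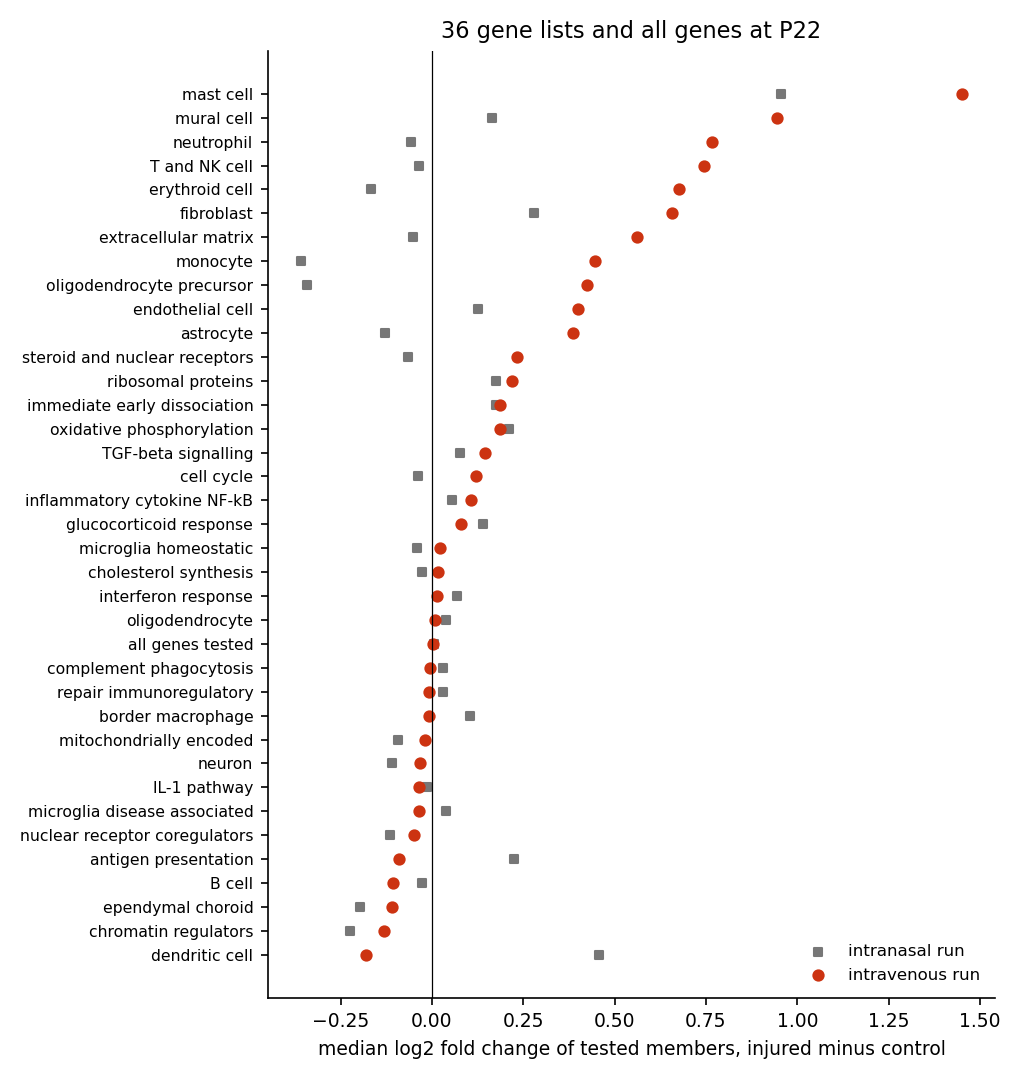
Median log2 fold change (injured minus control, horizontal axis) of the tested members of 36 gene lists and of all genes tested, in the intravenous (red circles) and intranasal (grey squares) P22 experiments. Mast cell (1.45), mural (0.94), neutrophil (0.77) and T and NK cell (0.75) markers lie farthest to the right in the intravenous experiment, while homeostatic microglial (0.02), interferon (0.01) and IL-1 pathway (-0.04) genes lie near 0.

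Ribosomal and respiratory genes had small positive medians, and the libraries' levels overlapped. Of 27 ribosomal protein genes 8 were higher and 0 lower at an unadjusted p under 0.05, with a median of 0.22, and of 29 oxidative phosphorylation genes 6 and 0, with a median of 0.19. At the same threshold 7.7% of all genes were higher and 7.12% lower. No member passed the adjusted test. The mean log2 level of the ribosomal genes was 8.04, 7.90 and 7.66 in control and 7.89, 8.03 and 8.12 in injured libraries. That of the oxidative phosphorylation genes was 5.58, 5.70 and 5.40 against 5.63, 5.80 and 5.83. Without control replicate 3, the lowest library in both, the medians were 0.11 and 0.12. Rplp0, a stalk protein of the large ribosomal subunit, held 1177, 1121 and 866 CPM against 1353, 1382 and 1302, Rps15 differed by 0.47 and Uqcr11, a subunit of complex III, by 0.48. The intranasal medians were 0.18 and 0.21, and there injured replicate 1 alone stood above the control libraries, at 8.29 against 7.64 to 7.84 for ribosomal and 6.11 against 5.43 to 5.51 for oxidative phosphorylation genes. Of 29 immediate early genes, which dissociation of tissue can induce, 0 differed at an unadjusted p under 0.05. Their median was 0.19, and 0.09 to 0.24 without 1 library. A positive sign was found for 20 of the 29 and for 7102 of all 14032 genes. Their mean log2 levels overlapped, at 7.224 to 7.755 in control and 7.569 to 7.769 in injured libraries.

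Among glucocorticoid-response genes, Fkbp5 had the widest difference, through 2 control libraries. Fkbp5, a chaperone that dampens glucocorticoid receptor signalling, held 102, 155 and 33.0 CPM in control and 26.5, 27.5 and 29.4 in injured libraries (-1.80 ± 0.47, adjusted p = 0.172). The injured libraries lay close together, while control replicates 1 and 2 were far above replicate 3. With HuMSC it was at 14.5 to 22.6 CPM at 20 M cells per kg and at 61.1 to 149 CPM at the higher doses. Of the other glucocorticoid-response genes, Cebpb and Cdkn1a had positive log2 differences, 0.60 and 0.64. Over 17 genes 2 were higher and 1 lower at an unadjusted p under 0.05, against 7.7% and 7.12% of all genes.

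The mean of the intravenous and intranasal differences at P22, fitted over 30 libraries, called 5 of 14184 genes (0.0353%), 2 higher (0.0141%) and 3 lower (0.0212%), and DESeq2 called 42 (0.296%). Besides Kcnj15 these genes are named after their values were seen. Tbx1 (ENSRNOG00000001892), a T-box transcription factor of the embryonic pharyngeal arches, had the smallest adjusted p, 0.000274. In the intravenous experiment its 3 control libraries held 0, 3 and 0 counts and its injured libraries 30, 17 and 29. In the intranasal experiment the control libraries again held 0, 3 and 0 counts and the injured libraries 22, 18 and 26. No injured library came near a control library, at levels that are low throughout, 0.845 to 1.83 CPM in the injured intravenous libraries.

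The ratio of Tbx1 counts, injured over control and scaled for library size, was 24.2 in the intravenous experiment, with an exact 95% Clopper-Pearson interval from 7.98 to 120 that covers counting error only. In the intranasal experiment it was 25.9 (8.49 to 129). The fitted mean difference, 4.50 ± 0.55 on the log2 scale, depends on the prior count added to libraries without reads. In the intravenous experiment alone the edgeR adjusted p of Tbx1 was 0.107 and in the intranasal one 0.0769. Neither passed by itself, and the difference between the experiments was -0.12 ± 1.49. The 9 intravenous libraries with HuMSC held 0.624 to 2.52 CPM, all above the control libraries.

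The 4 experiments at P7 and P12 played no part in the choice of Tbx1, and its ratio was above 1 in each. It was 1.73 (1.02 to 3.00) and 2.06 (1.20 to 3.66) at P7, intranasal and intravenous, and 5.49 (3.32 to 9.58) and 6.74 (3.27 to 16.1) at P12. These intervals too cover counting error only, not the spread between libraries. By edgeR's test the unadjusted p at P7 was 0.0955 in the intranasal experiment (adjusted p = 0.34) and 0.0387 in the intravenous one. Summed over 3 libraries, control counts were 24 and 20 at P7, 18 and 8 at P12 and 3 and 3 at P22. The injured libraries lay above all control libraries of their experiment in 3 of these 4, the exception being the intranasal P7 experiment. Tbx1 passed edgeR's test in 1 single experiment, the intranasal P12 one (adjusted p = 0.021), where 2.76% of all genes passed. Differences between ages were not tested.

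Of the other 4 genes called over both P22 experiments, 3 are described here, and they were less extreme. Rftn1, which encodes a lipid raft linker, held 2.89, 3.63 and 2.27 CPM in control and 6.78, 5.02 and 5.53 in injured intravenous libraries, and rose by 0.95 ± 0.172 over both experiments (adjusted p = 0.0372). Zkscan7, a zinc finger gene, held 5.57, 5.09 and 5.57 CPM against 3.36, 3.83 and 3.69, and fell by 0.63 ± 0.113 (adjusted p = 0.0372). Kcnj15 fell by 1.28 ± 0.238 (adjusted p = 0.0441).

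In the same 4 experiments the difference was negative in 4 for Kcnj15 and in 3 for Zkscan7, and positive in 2 for Rftn1. In the P7 intranasal experiment Kcnj15 passed by itself (-1.88 ± 0.526, adjusted p = 0.0495), and there 5.57% of all genes passed. The calls over both P22 experiments rested on few libraries: without the libraries numbered 1, 0 genes were called, without those numbered 2, 14, and without those numbered 3, 0. Without those numbered 1 the adjusted p of Tbx1 was 0.0956 and without those numbered 3 it was 0.219. Ncoa3 was not among the genes called in this mean (-0.55 ± 0.149, adjusted p = 0.239).

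**Figure D5:**
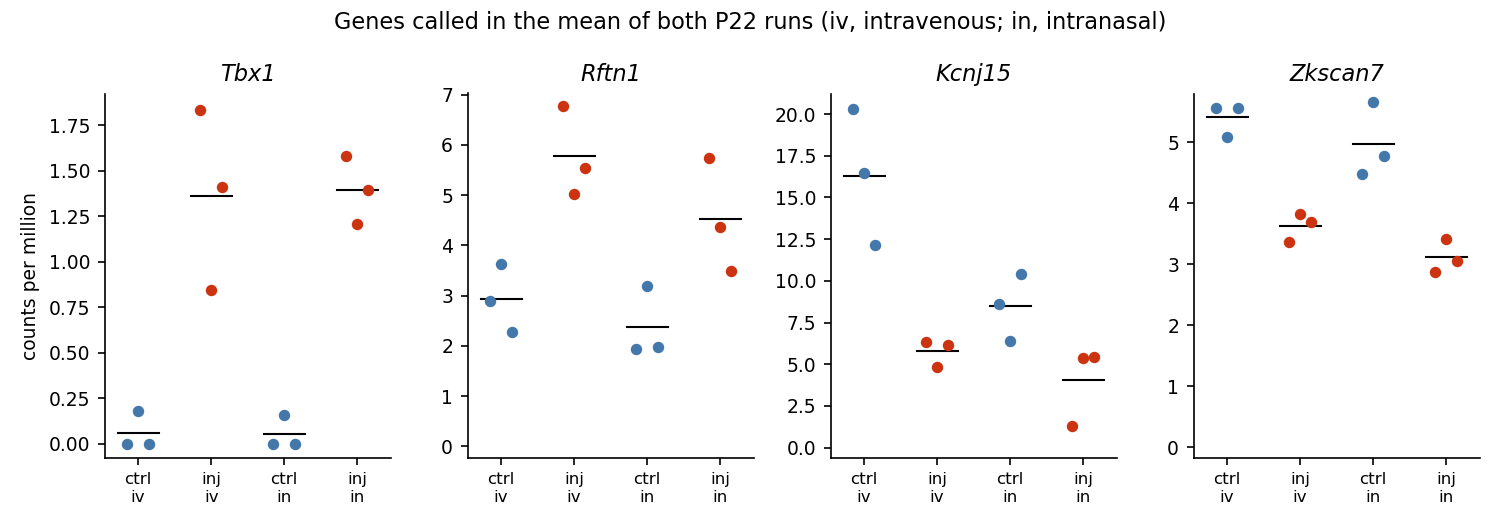
CPM (vertical axes, each with its own scale from 0) of 4 of the 5 genes called in the mean of both P22 experiments, in control (blue) and injured (red) libraries of the intravenous (iv) and intranasal (in) experiments; points are libraries and bars are group means. Tbx1 has 0 counts in 4 of the 6 control libraries and 0.845 to 1.83 CPM in the injured intravenous ones. For each of the 4 genes the 2 groups do not overlap within an experiment. The genes were called from these libraries, so their separation is a description. Over all genes, the injured libraries all lay above control for 10.8% and below for 8.74% in the intravenous experiment. In the intranasal one the shares were 5.96% and 5.01%.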

How the data were processed

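Microglial poly(A) RNA was sequenced as single reads of 75 bp. The authors deposited raw read counts per gene; the tools named, per the submitters' processing notes, include the aligner STAR (2.7.2d), the counter HTSeq (0.5.3), SAMtools and DESeq2 (1.8.1), while genome build, annotation and strand setting are not given in the sources used here. From the counts of all 32623 genes, CPM values were computed with TMM scaling. Genes with too few counts were removed with filterByExpr (minimum count 10, minimum total 15). The 15 libraries of the intravenous P22 experiment were fitted together as 5 group means with the quasi-likelihood F test of edgeR 4.0.16 in R 4.3.3, with Benjamini-Hochberg adjustment over all genes tested and a threshold of 0.05. The intranasal P22 experiment and the P7 and P12 experiments were fitted in the same way, each by itself, since each carries its own sequencing batch in the labels. The difference between the P22 experiments and the mean of both came from 1 fit of 30 libraries. SE values are the log2 fold change divided by the square root of F. The scripts were tested on simulated data.

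Alternatives were DESeq2 1.42.0, RLE and upper-quartile scaling, limma-voom (limma 3.58.1), no filter, the control and injured libraries alone, the replicate number as a block, and leaving out each replicate. Depth was 16.2 to 21.0 M counts in the 6 libraries. With 3 libraries a group, an exact permutation test of a single value cannot go below p = 0.1. No 2 libraries of a group agreed within sampling noise. The 36 gene lists held 742 genes, of which 705 matched the table by symbol, 8 through RefSeq synonyms and 29 not at all; 32 stood in more than 1 list and 668 were tested. Named were every gene past the threshold, the 12 genes of each direction with the smallest p whose groups did not overlap (mean log2 CPM of at least 1), up to 4 members of each list by p, and a short set of IL-1 and microglial genes. Members and lists were chosen with earlier results of these data known, so list counts carry no test. A few genes that met these rules are not reported here.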

Additional observations from a re-analysis of the deposited data

How the results depend on the processing

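The 1 gene called in the intravenous P22 experiment became 195 with DESeq2, 9 without the filter and 0 with the 6 control and injured libraries alone, and it ranged from 0 to 7 when 1 library was left out. It stayed at 1 with RLE or upper-quartile scaling, limma-voom and the replicate block. In the intranasal P22 experiment the count of 0 became 9 with DESeq2 and ranged from 0 to 1 without 1 library. For the difference between the experiments, 0 became 1 with DESeq2. Over both experiments the count of 5 became 42 with DESeq2, 2 with the replicate block, 0 with the 12 control and injured libraries alone, and ranged from 0 to 14 without the libraries of 1 number. The causes were not tested. Same-numbered libraries did not deviate together: their correlations ran from -0.367 to 0.371 with a median of -0.02, and 4 of 15 libraries correlated best with their own number, so the numbers were not read as pairs. With the replicate block the adjusted p of Ncoa3 was 0.0285. In the mean of both experiments the replicate block gave adjusted p-values of 0.0847 for Zkscan7 and 0.105 for Rftn1, while Tbx1 and Kcnj15 stayed under 0.05. Of 88 named genes 81 kept their sign under every alternative run. The other 7 had log2 differences near 0 or a wide spread, and without 1 library these ranged from -0.13 to 0.017 for Ncoa1, from -0.25 to 0.021 for Cx3cr1, from -0.34 to 3.00 for Hba-a2, from -0.28 to 0.19 for Il1b, from -0.32 to 0.35 for Il1rn, from -0.057 to 0.18 for Il1r1 and from -0.088 to 0.18 for Mki67. With limma-voom Il1rn stood at 0.0446. Other than Ncoa3, 37 of the named genes passed with DESeq2, 7 without the filter and 3 without control replicate 3. Without 1 library the median ranged from -0.05 to 0.01 for homeostatic, -0.14 to -0.03 for disease-associated, 0.06 to 0.18 for cytokine and NF-kB, -0.13 to -0.02 for coregulator and 0.09 to 0.18 for TGF-β genes.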
